A study of Homo sapiens with 13 samples.

Results

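The genes described here are the 240 protein-coding genes of human chromosome 19 whose RefSeq symbol is ZNF followed by a number, out of 1451 coding genes on that chromosome and 19970 coding genes on chromosomes 1 to 22 and X. Membership was set by symbol and position alone, from the RefSeq annotation of GRCh38. The group itself was chosen for description with earlier results of these data known. CUT&RUN, in which an antibody-tethered nuclease releases the DNA next to its target, had been performed on PANC1, a human pancreatic carcinoma cell line, carried here as a stable line expressing BRG1. All 12 libraries analysed came from that line, with 2 replicates for each of 6 targets: BRG1 (the ATPase subunit of the SWI/SNF chromatin remodelling complex), SMARCC1 (a core subunit of the same complex), NRF2 (a transcription factor of the antioxidant response) and the histone marks H3K4me1, H3K4me3 and H3K27ac. Cells without the introduced BRG1 and the IgG control library were not analysed here, so the values describe 1 line in 1 state. The labels do not say whether the replicates were separate cultures or whether the line was 1 clone.

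Most ZNF genes of chromosome 19 encode proteins with an array of C2H2 zinc fingers that bind DNA, often joined to a KRAB domain. KRAB domains recruit TRIM28, which brings in the histone methyltransferase SETDB1 and HP1 proteins, and many of these proteins silence transposable elements. The genes arose by repeated tandem duplication and stand in clusters. H3K4me3 marks promoters, H3K27ac marks active promoters and enhancers, and H3K4me1 is spread over enhancers and the flanks of promoters.

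A gene was said to carry a target when its annotated span plus 1 kb on each side met a deposited peak in both replicate libraries. Strength is the highest fold enrichment among the peaks of that window, as the authors deposited it. Peaks numbered 17752 to 37283 per histone library, 3213 and 6610 for BRG1, 600 and 572 for SMARCC1 and 1538 and 919 for NRF2. The depth of the libraries is unknown, so a missing peak means only that none was listed. Of the ductal and epithelial genes looked up to check the cell type, 5 of 6 carried H3K4me3 and 5 of 6 carried H3K27ac. None of 5 acinar and 4 endocrine genes met a peak of any target. None of 3 haematopoietic and 4 fibroblast genes carried H3K4me3, although 1 of each carried H3K27ac. The fibroblast gene was PDGFRB (6.33, 6.74), which also carried H3K4me1, BRG1 and SMARCC1. The haematopoietic gene CD3E carried H3K4me1 (4.99, 3.93).

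H3K4me3 was present at 205 of the 240 ZNF genes, or 85.4% (exact Clopper-Pearson 95% interval 80.3 to 89.6). Each library alone placed it at 206 of them. Among the 1211 other coding genes of chromosome 19 the share was 57.6%. The 237 ZNF genes of other chromosomes had a share of 88.2%, close to that of the chromosome 19 genes. H3K27ac was present at 124 ZNF genes, or 51.7% (45.1 to 58.1), against 37.3% of the other chromosome 19 genes and 63.7% of ZNF genes elsewhere. H3K4me1 was rare, at 7 ZNF genes or 2.92% (1.18 to 5.92), against 9.08% of the other genes of the chromosome and 19.8% of ZNF genes elsewhere. Its peaks were the most weakly called of the 3 histone marks. Only 0.641% and 0.234% of them reached a −log10 q of 5, so all H3K4me1 shares here rest on weak peaks. The intervals cover counting error only, and neighbouring genes are not independent of each other.

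BRG1 was present at 4 ZNF genes, or 1.67% (0.456 to 4.21), and the other chromosome 19 genes carried it at 0.495%, or 6 of 1211. SMARCC1 was present in both libraries at none of the 240 genes, where a count of 0 allows a share of up to 1.25% by the limit of 3 counts and 1.53% by the exact interval, and the share over the other genes was 0.743%. NRF2 was also present at none of them, with the same limits, against 0.165%. BRG1 was therefore scarce in both groups of chromosome 19 genes. Chromosome 19 had the lowest share of coding genes with BRG1 of the 23 chromosomes, 0.689%, against 5.16% of all coding genes, and it also had the lowest share for H3K4me1 (8.06%) and NRF2 (0.138%). ZNF genes on other chromosomes carried BRG1 at 5.06%. Median spans were 12798 bp over the other chromosome 19 genes, 23130.5 bp over its ZNF genes and 24190 bp over all coding genes. A longer span can meet more peaks, and the part of length in these shares was not tested.

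**Figure D1:**
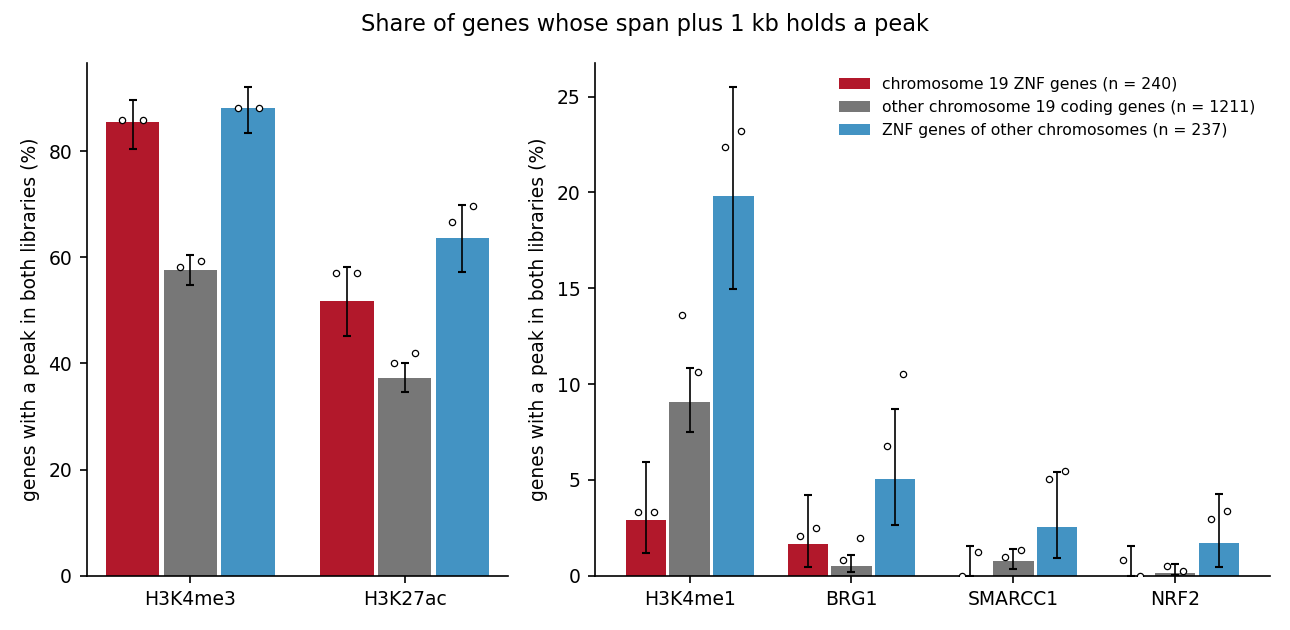
Percent of genes with a peak of each target in both libraries (bars), with exact 95% intervals (lines) and the share in each library alone (white circles), for the 240 chromosome 19 ZNF genes, the 1211 other coding genes of the chromosome and the 237 ZNF genes of other chromosomes. The chromosome 19 ZNF genes stood at 85.4% for H3K4me3 and 1.67% for BRG1, and both groups of chromosome 19 genes lay below the ZNF genes of other chromosomes for BRG1 and H3K4me1.

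The difference in BRG1 share, ZNF genes minus other chromosome 19 genes, was 1.17 percentage points (Newcombe 95% interval 9.8e-05 to 3.72). It was 1.26 points from the first libraries and 0.518 points from the second. The share of the other genes moved more between libraries, to 0.826% in replicate 1 and 1.98% in replicate 2, than that of the ZNF genes, to 2.08% and 2.5%. The ZNF genes were longer, with a median span of 23130.5 bp against 12798 bp. Among genes of 10 to 30 kb, 1 of 134 ZNF genes (0.746%) and 1 of 498 other genes (0.201%) carried BRG1. Over 30 kb, 3 of 78 ZNF genes (3.85%) and 5 of 242 others (2.07%) did. Under 10 kb, 0 of 28 and 0 of 471 did, so most genes with BRG1 were long in both groups. With peaks of a −log10 q of at least 1.3 alone, 0 of 240 ZNF genes and 1 of 1211 others kept BRG1, and the difference turned to -0.0826 points. No shortage of BRG1 at ZNF genes relative to the chromosome could be seen at this number of peaks.

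The 4 ZNF genes with BRG1 in both libraries differed in where the peak lay. At ZNF564 (chr19:12525373-12551482) the peak had a fold of 3.49 in replicate 1 and 3.86 in replicate 2, and its centres lay -164 and -119 bp from the start site, inside peaks of H3K4me3 and H3K27ac. At ZNF254 the folds were 3.82 and 5.94, at -32542.5 and -32480.5 bp from the start site listed in RefSeq, within the annotated span and outside every histone peak. At ZNF507 they were 2.76 and 2.21, at 28473 and 28334.5 bp, also outside every histone peak. At ZNF544 they were 2.93 and 2.93, at 46205.5 and 46212 bp, near the far end of the gene, in H3K27ac peaks of both libraries and an H3K4me3 peak of 1. Only the ZNF564 peak was thus within 1 kb of the listed start site of its gene. Other start sites of these genes or of their neighbours were not looked for. None of the 20 and 47 BRG1 peaks on chromosome 19 reached a −log10 q of 5. Over all chromosomes only 0.809% and 0.862% of BRG1 peaks did, so few would be looked for among so small a number.

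A BRG1 peak in 1 library was found at ZNF460 (fold 3.76, replicate 2), ZNF227 (3.25, replicate 1) and ZNF546 (2.14, replicate 2). SMARCC1 peaks were found in replicate 2 only, at ZNF227 (3.27), ZNF428 (3.18) and ZNF787 (2.73). NRF2 peaks were found in replicate 1 only, at ZNF486 (3.36) and ZNF460 (3.06). ZNF227 was the only ZNF gene with both a BRG1 and a SMARCC1 peak, each in a different replicate number, and ZNF460 the only one with both BRG1 and NRF2.

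Of the 205 ZNF genes with H3K4me3, 123 (60%) also carried H3K27ac in both libraries, 26 (12.7%) in 1 library and 56 (27.3%, 21.3 to 34.0) in neither. The corresponding shares of the other chromosome 19 genes were 62.6%, 11.5% and 26%. The difference in the share without H3K27ac was 1.35 percentage points (Newcombe 95% interval -5.23 to 8.53), with 0.316 points from the first libraries and 1.46 from the second. The direction turned in 3 of the 18 alternatives, to between -1.61 and -0.660 points. The interval spanned 0, and it leaves room for a difference of up to 8.53 points. Over all coding genes 14.7% of those with H3K4me3 lacked H3K27ac, so both groups on chromosome 19 lay above the share over all chromosomes. Among ZNF genes of other chromosomes, 39 of 209 with H3K4me3 lacked it, or 18.7% (13.6 to 24.6). Most H3K27ac peaks were weakly called: 7.86% and 8.02% of them reached a −log10 q of 5, against 70.8% and 72.6% of H3K4me3 peaks. With only peaks past that limit, 87.3% of H3K4me3 ZNF genes and 84.1% of the other genes lacked H3K27ac.

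Where H3K4me3 was missing, every other target was missing too. All 33 ZNF genes with no H3K4me3 in either library also had no peak of any other target, which is 13.8% of the 240, against 36.3% of the other chromosome 19 genes. Among the others, 439 of 486 genes without H3K4me3 (90.3%) had no peak at all. The remaining ZNF genes, ZNF414 and ZNF233, had H3K4me3 in 1 library. ZNF414 carried H3K27ac in both (3.79, 4.21) with H3K4me3 in replicate 2 alone (3.81), and ZNF233 had a single H3K4me3 peak (2.51, replicate 1).

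H3K4me3 at the ZNF genes lay in the same range of strength as at the rest of the chromosome. Its median fold was 15.1 in replicate 1 and 15.5 in replicate 2 over the 205 genes, against 13.8 and 14.5 over 697 others. The values of single genes ran from 2.98 to 64.1 in replicate 1. Across the 205 genes the libraries gave log2 folds with a Pearson correlation of 0.912, a value across genes that share both libraries, and the median gene differed 1.13-fold between them. For H3K27ac the medians were 4.22 and 4.19 over 124 ZNF genes and 4.28 and 4.29 over 452 others, and the correlation between libraries was 0.689.

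The strongest H3K4me3 was at ZNF264, with a fold of 64.1 in replicate 1 and 63.9 in replicate 2. ZNF460 followed with 44.0 and 38.3. ZNF581 had 39.1 and 37.0, ZNF329 36.7 and 39.3, ZNF841 39.7 and 36.3, and ZNF14 35.4 and 40.3. At each of these genes both libraries stood above the third quartile of the ZNF genes, 20.3 in replicate 1 and 21.2 in replicate 2. The strongest H3K27ac was at ZNF607, with 8.10 and 9.06, beside an H3K4me3 fold of 33.7 and 35.9. ZNF787 had 6.76 and 7.82, ZNF584 7.20 and 7.34, ZNF497 7.01 and 7.51, ZNF665 7.11 and 7.18, and ZNF329 6.12 and 8.11. ZNF329 was the only gene among the highest 6 for both marks. ZNF787 and ZNF497 combined high H3K27ac with H3K4me3 folds below the first quartile of the ZNF genes, 7.95 and 9.44 at ZNF787 and 5.53 and 7.35 at ZNF497.

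The widest H3K4me3 peaks each covered a pair of neighbouring genes. ZNF581 and ZNF580, whose spans overlap, shared 1 peak of 4531 bp in replicate 1 and 4565 bp in replicate 2. ZNF569 and ZNF570, which overlap at their start sites on opposite strands, shared one of 4375 and 4351 bp. The median width over the 205 genes was 1342 and 1321 bp. For 31 of the 205 genes (15.1%) the H3K4me3 call rested on peaks that also met the window of another coding gene, against 33.0% of the other genes.

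H3K4me1 reached 7 ZNF genes in both libraries. ZNF787 had the highest folds, 5.74 and 5.51, followed by ZNF507 with 3.79 and 4.55. ZNF565 and ZNF146, which overlap, shared their highest peak (3.91, 3.67), and ZNF460 had 3.49 and 3.62. ZNF536, a brain-expressed regulator of neuronal differentiation, had 3.36 and 3.54, and ZNF546 had 2.98 and 2.37. All of these except ZNF536 also carried H3K27ac, so ZNF536 was the only ZNF gene with H3K4me3 (4.28, 4.37) and H3K4me1 without H3K27ac.

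H3K4me3 was weaker and narrower at the ZNF genes that lacked H3K27ac. Its median fold was 18.4 and 19.03 over the 123 genes with H3K27ac, 11.4 and 14.2 over the 26 with H3K27ac in 1 library and 9.91 and 11.2 over the 56 without. The median peak width was 1587 and 1625 bp with H3K27ac, 1156.5 and 1202.5 bp with it in 1 library and 991.5 and 995 bp without. The ranges overlapped widely, from 3.60 to 64.1 with H3K27ac and from 3.37 to 21.9965 without in replicate 1. At the other chromosome 19 genes without H3K27ac the median fold was 6.33 and 7.16, below that of the corresponding ZNF genes.

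The share without H3K27ac was therefore also taken at like H3K4me3 strength. For this the chromosome 19 genes with H3K4me3 were divided into tertiles by their mean H3K4me3 fold, at 10.8 and 18.3. In the lowest tertile 30 of 57 ZNF genes (52.6%) lacked H3K27ac, against 56.6% of 244 others. In the middle tertile 24 of 78 ZNF genes (30.8%) lacked it, against 17.5% of 223 others. In the highest tertile 2 of 70 ZNF genes (2.86%) lacked it, against 1.74% of 230 others. Only in the middle tertile did the shares stand more than 5 points apart, and those differences between groups were not tested.

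**Figure D2:**
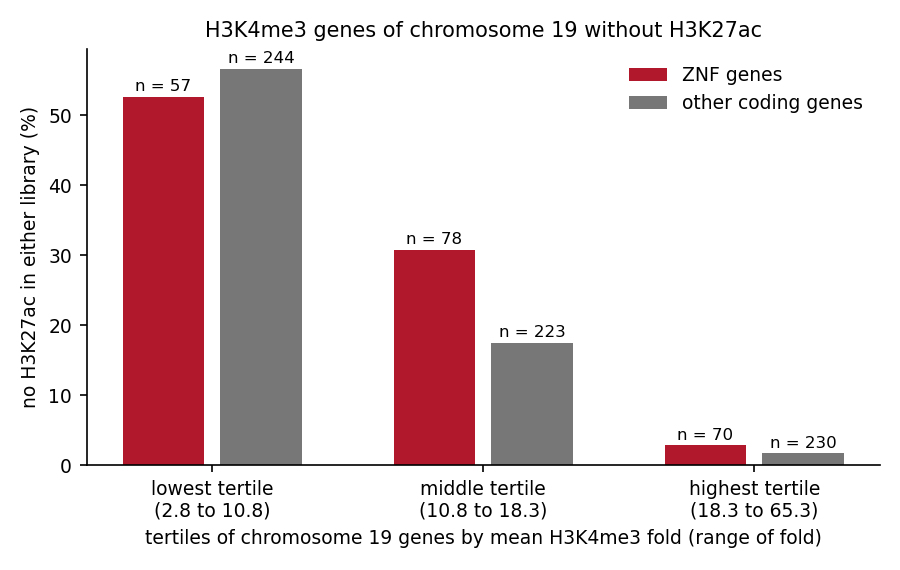
Percent of H3K4me3 genes of chromosome 19 with no H3K27ac peak in either library (bars), by tertiles of mean H3K4me3 fold, for ZNF genes and other coding genes, with the number of genes above each bar. The share fell from 52.6% to 2.86% over the tertiles at the ZNF genes and from 56.6% to 1.74% at the others.

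Gene length moved with the same share. Among ZNF genes under 10 kb, 12 of 24 with H3K4me3 (50%) lacked H3K27ac, against 32.3% of the others of that length. Among those of 10 to 30 kb the share was 32.5% against 24.8%, and among those over 30 kb it was 8.20% (5 of 61) against 19.4%. The order of ZNF genes and others was thus turned in the longest class. A longer window can meet more peaks, and the part of length in the result was not tested.

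The 10 genes with the strongest H3K4me3 among those without H3K27ac were led by ZNF776, with an H3K4me3 fold of 21.9965 and 25.6. ZNF211 had 21.1 and 18.9, ZNF230 16.3 and 18.9, ZNF222 16.1 and 16.1, and ZNF557 15.2 and 17.1. ZNF442, ZNF333, ZNF350, ZNF418 and ZNF134 had folds between 12.3 and 18.1 in replicate 1. ZNF776 and ZNF211 were the 2 genes of this class in the highest tertile of H3K4me3, where 64 of 70 ZNF genes carried H3K27ac. ZNF350, also called ZBRK1, is a KRAB repressor known as a partner of BRCA1.

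Around the start site, H3K4me3 lay mostly downstream, at the ZNF genes and at the other genes alike. RefSeq promoters were at hand for 210 of the 240 genes, and peaks of both libraries covered the position 400 bp into the gene at 83.3% of them. At the other genes the highest cover was 47.0%, at 200 bp. Both curves were nearly flat from 100 to 600 bp, at 81.4% to 83.3% of ZNF genes and 45.1% to 47.0% of the others. At -100 bp the cover was 54.3% and 22.9%. H3K27ac covered at most 34.3% of the ZNF genes, at 200 bp, and 18.1% of the others, at 400 bp. H3K4me1 covered no more than 0.476% of ZNF genes at any position profiled, from -4000 to 6000 bp, and peaks farther into the genes were not profiled.

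**Figure D3:**
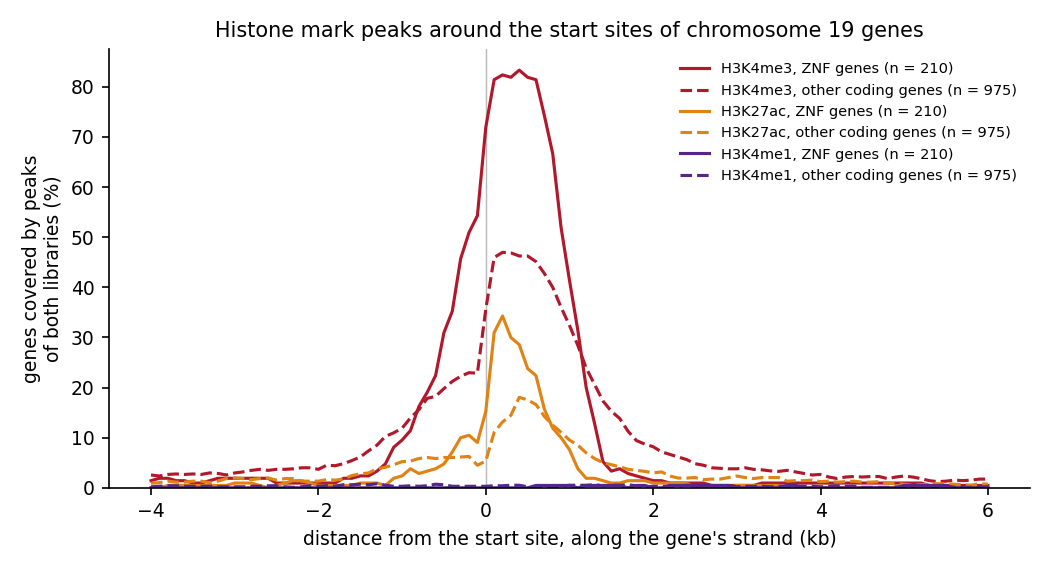
Percent of genes covered by peaks of both libraries at each distance from the start site (kb, along the strand of the gene), for the 210 ZNF genes (solid) and 975 other coding genes of chromosome 19 (dashed) with a listed promoter. H3K4me3 reached 83.3% of ZNF genes and 47.0% of others just downstream of the start, and H3K27ac 34.3% and 18.1%.

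An ETS-type motif was common, though not general, in the ZNF promoters. The 250 bases before the start site are given below for ZNF264, with the strongest H3K4me3, for ZNF776, with the strongest H3K4me3 among genes without H3K27ac, and for 4 genes with no peak of any target, ZNF382, ZNF671, ZNF208 and ZNF404. They are RefSeq sequences of GRCh38.p14, written from upstream to the start site along the strand of the gene. Capitals mark that motif, CCGGAAG, on either strand.
ZNF264: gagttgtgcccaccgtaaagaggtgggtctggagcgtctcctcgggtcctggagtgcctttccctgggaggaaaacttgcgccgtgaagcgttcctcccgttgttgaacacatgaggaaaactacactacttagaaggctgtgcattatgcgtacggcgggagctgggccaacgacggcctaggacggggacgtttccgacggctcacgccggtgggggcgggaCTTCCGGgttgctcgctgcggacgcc
ZNF776: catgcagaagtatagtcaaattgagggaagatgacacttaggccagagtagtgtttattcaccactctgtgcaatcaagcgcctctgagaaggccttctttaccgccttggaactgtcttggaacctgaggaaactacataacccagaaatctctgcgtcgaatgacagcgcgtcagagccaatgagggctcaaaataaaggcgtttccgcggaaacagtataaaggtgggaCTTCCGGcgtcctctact
ZNF382: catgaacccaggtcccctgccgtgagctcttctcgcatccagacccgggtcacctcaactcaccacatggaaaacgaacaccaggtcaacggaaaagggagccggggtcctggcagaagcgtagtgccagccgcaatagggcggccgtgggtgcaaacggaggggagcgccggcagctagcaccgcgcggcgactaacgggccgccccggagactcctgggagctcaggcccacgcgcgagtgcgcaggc
ZNF671: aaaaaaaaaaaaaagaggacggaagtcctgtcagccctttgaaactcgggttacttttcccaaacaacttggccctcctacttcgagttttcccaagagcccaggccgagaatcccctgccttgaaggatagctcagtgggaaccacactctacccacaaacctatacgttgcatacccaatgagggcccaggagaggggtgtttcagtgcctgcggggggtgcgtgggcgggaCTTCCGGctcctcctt
ZNF208: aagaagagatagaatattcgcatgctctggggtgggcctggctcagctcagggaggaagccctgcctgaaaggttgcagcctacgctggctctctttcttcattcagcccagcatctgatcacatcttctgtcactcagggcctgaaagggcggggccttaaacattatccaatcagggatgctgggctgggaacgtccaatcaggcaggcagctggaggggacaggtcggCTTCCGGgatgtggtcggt
ZNF404: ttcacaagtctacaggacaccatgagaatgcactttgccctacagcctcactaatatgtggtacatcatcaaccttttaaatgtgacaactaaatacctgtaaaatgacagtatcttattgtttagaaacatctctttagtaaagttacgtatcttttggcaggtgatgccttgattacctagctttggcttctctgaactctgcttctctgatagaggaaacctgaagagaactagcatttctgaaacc
These stretches lie at chr19:57191250-57191499 (plus strand), chr19:57746565-57746814 (plus), chr19:36605063-36605312 (plus), chr19:57727625-57727874 (minus), chr19:22010944-22011193 (minus) and chr19:43883965-43884214 (minus). In the 4 promoters that hold it, the motif stands close to the start site. ZNF382 lacks the motif and holds 24 CpG dinucleotides in the 250 bases, against 23 at ZNF264, 11 at ZNF776, 9 at ZNF671 and 7 at ZNF208. ZNF404 also lacks the motif and holds 1 CpG, so the unmarked genes ran from the highest to the lowest CpG count of these 6 promoters.

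CCGGAAG was found on either strand in 93 of 210 ZNF promoters of 300 bases (44.3%), taken from 250 bases before to 50 after the start. It was found in 13.4% of 975 other chromosome 19 coding promoters, in 36.9% of ZNF promoters elsewhere and in 10.3% of all 35116 promoters in the table. The median distance of the ZNF matches from the start was -15 bp (quartiles -35 and 4), and 79 of the 93 promoters had one within 50 bp of it. By class of marks, it was in 41.2% of promoters of genes with H3K4me3 and H3K27ac, 46.8% of those without H3K27ac and 53.8% of the 26 with no H3K4me3. At other chromosome 19 genes it was in 21.4% with both marks, 14.8% with H3K4me3 but no H3K27ac and 3.13% without H3K4me3.

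The other motifs searched on both strands, each counted whether or not it overlapped another, were nearer the background. The CCAAT box was in 52.9% of ZNF promoters, 37.3% of other chromosome 19 promoters and 34.6% of all promoters. The GC box GGGCGG was in 69.5%, 65.5% and 45.0% respectively, and the YY1-type motif ATGGCG in 18.1%, 15.5% and 10.7%. The E-box CACGTG was in 3.81%, 8.82% and 7.26%, the NRF1-type motif GCATGCGC in 3.33%, 5.44% and 3.05%, and the antioxidant-type motif TGACNNNGC, where N is any base, in 14.8%, 15.7% and 13.3%. A match is a run of letters in this window and not a measured binding site.

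The median CpG ratio of unmarked ZNF promoters lay above that of other unmarked promoters of the chromosome, with single genes such as ZNF404 (0.176) far below it. The ratio of observed to expected CpG had a median of 0.765 over the ZNF promoters and 0.733 over the other coding promoters of the chromosome. Over the 26 ZNF promoters without H3K4me3 it was 0.667, and over 351 other promoters without H3K4me3 it was 0.340. It was 0.789 for ZNF genes with H3K4me3 and H3K27ac and 0.765 for those without H3K27ac.

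Along the chromosome the marks were spread unevenly. A gap of over 1 Mb between neighbouring ZNF genes was taken to separate clusters, which gave 16, of which 9 held 3 or more ZNF genes and 231 of the 240. H3K4me3 was at 25 of 25 ZNF genes in the ZNF653 to ZNF791 cluster and at 26 of 37 in the ZNF101 to ZNF254 cluster. Of the H3K4me3 genes, 15 of 25 carried H3K27ac in the first and 19 of 26 in the second. In the clusters near the end of the long arm, ZNF175 to ZNF331 and ZNF628 to ZNF446, 33 of 39 and 47 of 57 ZNF genes carried H3K4me3, and 9 and 15 of these lacked H3K27ac.

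**Figure D4:**
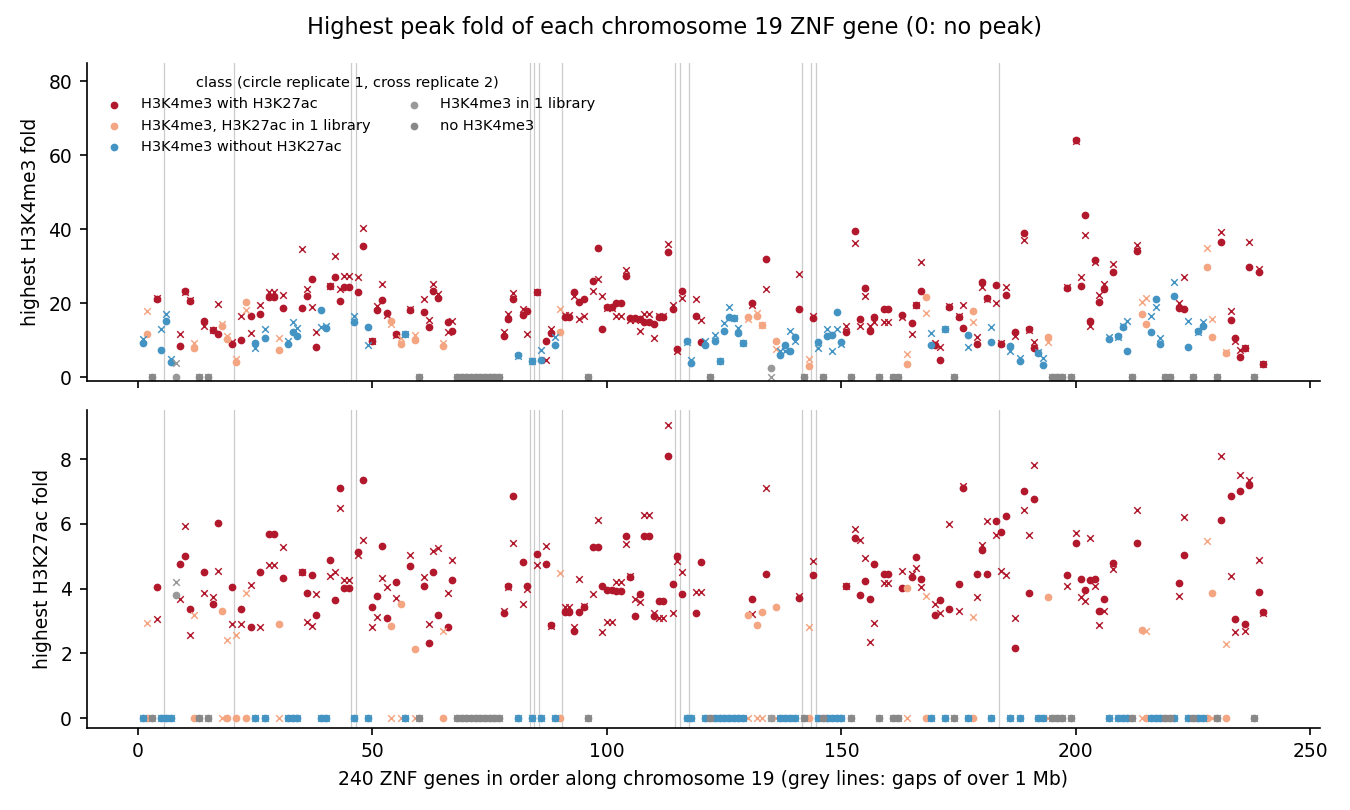
Highest H3K4me3 fold (upper) and H3K27ac fold (lower) of each of the 240 ZNF genes in order along chromosome 19, with circles for replicate 1 and crosses for replicate 2, colour for the class of marks, 0 for no peak and grey lines at gaps of over 1 Mb. The highest point is ZNF264 at 64.1, and a row of 10 neighbouring genes stands at 0 for both marks.

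Among the 9 clusters of 3 or more ZNF genes, those from ZNF565 to ZNF573 and from ZNF575 to ZNF296 stood at opposite ends for H3K27ac, and both were singled out after their values were seen. In the ZNF565 to ZNF573 cluster (chr19:36182060-37779586), 23 of 24 ZNF genes carried H3K4me3 and all 23 carried H3K27ac in both libraries. The exception was ZNF382, with no peak of any target. Some neighbours there lie head to head or overlap. The 23 genes had 18 different highest H3K4me3 peaks, with 5 pairs sharing one, such as ZNF790 with ZNF345 (18.9, 18.7) and ZNF829 with ZNF568 (20.1, 16.7). Of the 5 other coding genes with H3K4me3 in that interval, 2 carried H3K27ac.

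In the ZNF575 to ZNF296 cluster (chr19:43530835-45076478), 22 of 24 ZNF genes carried H3K4me3, and 13 of these 22 (59.1%) had H3K27ac in neither library. A further 4 had it in 1 library, all in replicate 1: ZNF224, ZNF234, ZNF226 and ZNF235. The 5 with H3K27ac in both were ZNF576, ZNF428, ZNF225, ZNF227 and ZNF296. Of the 16 other coding genes with H3K4me3 in the same interval, 11 (68.8%) carried H3K27ac and 3 (18.8%) had none. The 8 genes ZNF283, ZNF45, ZNF221, ZNF155, ZNF230, ZNF222, ZNF223 and ZNF284, close neighbours with the unmarked ZNF404 among them, had H3K4me3 folds between 4.36 and 16.3 in replicate 1 and no H3K27ac peak.

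H3K4me3 was weaker in that cluster, with a median fold of 11.5 and 13.6, than in the ZNF565 to ZNF573 cluster, with 18.5 and 16.8. In the middle tertile of H3K4me3 strength, 12 of 12 ZNF genes of the ZNF565 to ZNF573 cluster and 1 of 8 of the ZNF575 to ZNF296 cluster carried H3K27ac in both libraries. In the highest tertile, 11 of 11 and 4 of 4 did. The ZNF565 to ZNF573 cluster had no gene in the lowest tertile, where 10 genes of the other stood. The clusters thus differed in the middle tertile of strength, over few genes, and the difference was not tested. Among those 12 genes, ZNF565 with ZNF146, ZNF569 with ZNF570 and ZNF540 with ZNF571 shared their highest H3K4me3 peak. The clusters also differed in gene length. The median ZNF span was 35135.5 bp from ZNF565 to ZNF573 and 18066.5 bp from ZNF575 to ZNF296. The part of length in the contrast was not tested.

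**Figure D5:**
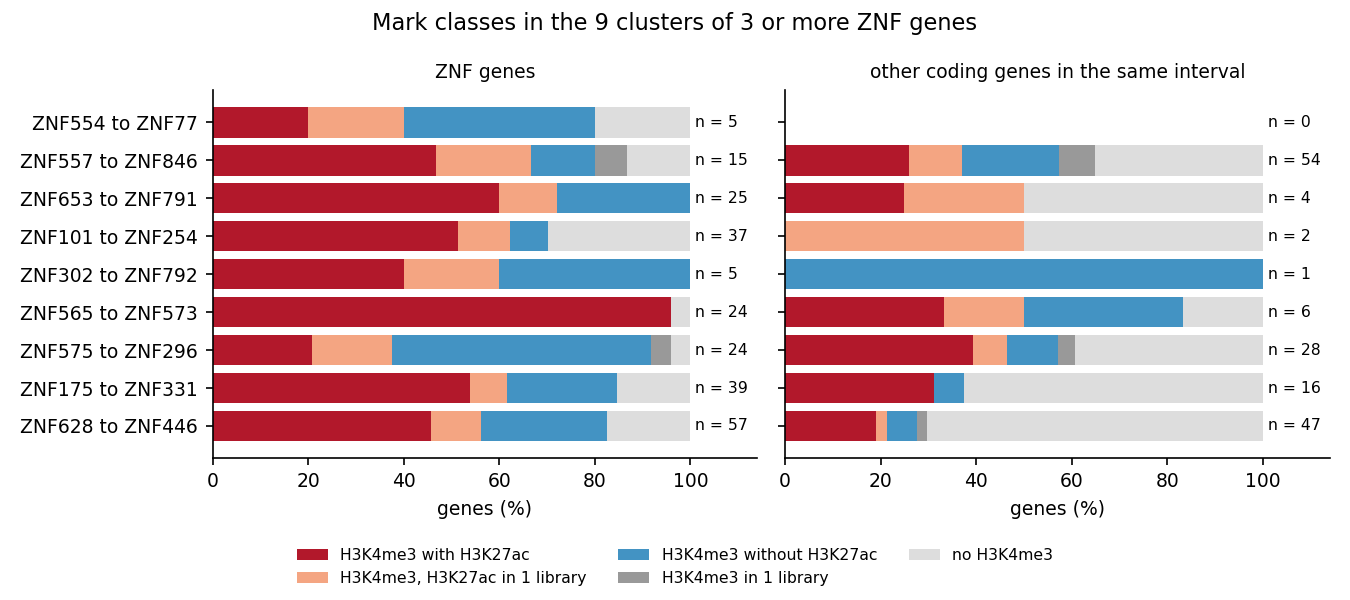
Percent of genes in each class of marks in the 9 clusters of 3 or more ZNF genes, for ZNF genes (left) and for other coding genes in the same intervals (right), with the number of genes beside each bar. H3K27ac accompanied H3K4me3 at all 23 marked ZNF genes from ZNF565 to ZNF573 and at 5 of 22 from ZNF575 to ZNF296.

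The 33 unmarked ZNF genes were in part neighbours. The longest run, picked out after the values were seen, held 10 consecutive genes, ZNF208, ZNF257, ZNF676, ZNF729, ZNF98, ZNF492, ZNF99, ZNF723, ZNF728 and ZNF730, over chr19:21939815-23147221. That interval of 1207.41 kb held no other coding gene and no peak of any of the 6 targets in any of the 12 libraries. The flanking ZNF genes were marked in both libraries. ZNF43, 87.75 kb before the run, had H3K4me3 folds of 12.6 and 15.2 and H3K27ac folds of 4.26 and 4.89. ZNF724, 74.4 kb after it, had 11.1 and 12.1 for H3K4me3 and 3.24 and 3.32 for H3K27ac. Shorter runs were ZNF667, ZNF471 and ZNF470, then ZNF534 with ZNF578 and ZNF154 with ZNF671. These paralogs are similar in sequence, and how reads matching several copies were treated is not given in the sources used here.

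Among 9 chromosome 19 ZNF genes known to be DNA-methylated in tumours, 6 had no peak of any target: ZNF132, ZNF154, ZNF177, ZNF382, ZNF471 and ZNF671. ZNF677 had H3K4me3 at 11.5 and 8.19 and ZNF582 at 3.37 and 5.33, both without H3K27ac. ZNF331, an imprinted gene, had H3K4me3 at 25.05 and 20.2 and H3K27ac at 6.10 and 5.65. The list thus had 6 of 9 unmarked members, where the 240 ZNF genes had 33. The list was chosen with earlier results of these data known, so no conclusion is drawn from that count. DNA methylation was not measured in these libraries.

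The repressors of transposable elements were both marked. ZNF91, which silences SVA elements, had H3K4me3 at 15.6 and 17.2 and H3K27ac at 4.09 and 4.06. ZNF93, which silences LINE-1 elements, had 18.2 and 19.1 for H3K4me3 and 3.78 and 3.11 for H3K27ac. ZNF85 had 18.1 and 18.4 with H3K27ac at 4.70 and 5.03. ZNF274, which recruits SETDB1 to the bodies of other ZNF genes, had a weaker H3K4me3 of 6.64 and 6.79 and H3K27ac in replicate 2 only (2.28).

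Of the 8 ZNF genes looked up by name, 7 carried H3K4me3 and 3 carried H3K27ac in both libraries, beside 85.4% and 51.7% of all the ZNF genes. ZNF541, a testis gene of meiosis, had no peak. ZNF224, a KRAB repressor, had H3K4me3 at 16.4 and 15.8 and H3K27ac in replicate 1 only (3.18), and ZNF45 had H3K4me3 at 9.92 and 11.3 without H3K27ac. ZNF296 had 18.5 and 28.0 for H3K4me3 and 3.72 and 3.77 for H3K27ac.

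The genes of the corepressor machinery that KRAB zinc finger proteins use mostly carried both promoter marks. All 18 carried H3K4me3 and 17 carried H3K27ac in both libraries, where the shares over all coding genes were 62.4% and 51.0%. H3K4me1 was at 3 of the 18, against 27.5% of all coding genes, and none carried BRG1, SMARCC1 or NRF2 in both libraries, against 5.16%, 0.856% and 0.826%. TRIM28, which itself lies on chromosome 19, had H3K4me3 at 46.4 and 49.1 and H3K27ac at 4.69 and 6.36. SETDB1 was the one with H3K27ac in a single library (2.36, replicate 1), beside H3K4me3 at 9.46 and 11.9.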

How the data were processed

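CUT&RUN peak lists of 12 libraries were used, grouped by target and replicate number in the labels. MACS2 2.2.7.1, Bowtie2 2.4.1, Picard 2.23.9 and SAMtools 1.9 are listed with GRCh38, per the submitters' processing notes, with no role given. The control used for the peaks, the filters and the treatment of reads matching several places are not given in the sources used here. Peaks were listed per library. Strength is the fold enrichment (a ratio) deposited by the authors. The deposited −log10 p was read only to see its lowest value, which lay between 2.01 and 2.04 in every library. The deposited −log10 q served as a threshold in alternatives, and the deposited peak score was not used. No read counts were at hand, so depth is unknown.

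Windows were gene spans plus 1 kb, and overlap meant 1 bp. Start sites came from the RefSeq promoters. Shares have exact 95% intervals, differences Newcombe intervals, and no p-value was computed. Python 3.11.15, pandas 2.3.3, NumPy 2.4.6 and SciPy 1.17.1 were used, and the overlap code was tested on simulated peaks. Named genes were the highest 6 per histone mark, the strongest 10 with H3K4me3 and no H3K27ac, those with factor peaks, unmarked genes of longest span, the widest H3K4me3 peaks and 4 short lists. The genes and lists were chosen with earlier results of these data known. Alternatives changed the peak threshold, window, replicate rule, shared peaks and comparison genes. Zinc finger and KRAB counts from protein sequences were planned and not run.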

Additional observations from a re-analysis of the deposited data

How the results depend on the processing

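Peaks were too weakly called for a strict threshold to leave the H3K27ac or BRG1 shares in place. At a −log10 q of at least 5, for all targets or for histone peaks alone, 87.3% of H3K4me3 ZNF genes had no H3K27ac, and at 1.3 it was 42.9%. The BRG1 share was 0 at both thresholds, its difference from other chromosome 19 genes was 0 at 5, and at 1.3 it turned to -0.0826 points, since 1 other gene and no ZNF gene kept a peak. With 1 kb around either gene end alone, 76.3% carried H3K4me3 and 0.417% BRG1, and with only peaks of a single gene window 72.5% carried H3K4me3. From 1 replicate alone, in turn, the share with H3K4me3 was 85.8% either way, the share without H3K27ac 33.5% to 34.0%, the BRG1 share 2.08% to 2.5%, and the differences 0.316 to 1.46 and 0.518 to 1.26 points. Same-numbered H3K4me3 and H3K27ac libraries did not deviate together (correlation 0.0253 over 559 genes), other targets were not checked, and the numbers were not taken to pair the libraries. With the replicate block the values were 85.8%, 33.7%, 2.29%, 0.889 and 0.888 points. The difference in the share without H3K27ac stayed inside its interval in all 18 settings, yet its direction turned in 3: -0.740 points with a peak of either replicate, -0.660 where H3K27ac had to overlap an H3K4me3 peak and -1.61 with 1 kb around the start site. The settings included letter-suffixed symbols and that start-site window, which were chosen after seeing the data. The cause of these shifts was not tested.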

Other observations

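Other zinc finger genes of chromosome 19 fell outside the symbol rule. Of 18 with symbols starting ZFP, ZSCAN, ZIM, ZIK, ZKSCAN or ZBTB, 10 carried H3K4me3, 8 carried H3K27ac and none carried H3K4me1, BRG1, SMARCC1 or NRF2 in both libraries. The 8 without H3K4me3 had no peak of any target, and none of the 10 with it lacked H3K27ac in both libraries. Of the 6 genes with ZNF, a number and a letter, 5 carried H3K4me3, 2 carried H3K27ac and 1 had no peak of any target. Of those 5, 3 had H3K27ac in neither library.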
